A study of Mus musculus with 74 samples.

Results

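Promoter contacts were compared between erythroid-induced control cells and the progenitors they derive from, using promoter capture Hi-C, which joins DNA ends that lie close together in the nucleus, enriches the pieces that carry promoters and counts which other pieces they were joined to. The cells were HPC-7, a mouse haematopoietic progenitor line that grows in stem cell factor (SCF). Of the 74 libraries of the series, 4 were used here, those that the labels name as promoter capture of untransduced HPC and of Ery Luc cells. The Ery Luc cells bore a doxycycline-switched hairpin directed at luciferase, a control with no mouse target, had received doxycycline for 72 h (library 1) or 73 h (library 2) as labelled, and were grown in 20 ng/ul SCF with erythropoietin (EPO) at 4 U/l. The HPC cells were not transduced and grew in 100 ng/ul SCF without EPO. The Ery Luc cells thus differ from the HPC cells in transduction, hairpin and doxycycline as well as in cytokines, and these cannot be told apart. A further list, from Ery cells with a hairpin against the cohesin subunit gene Stag2 (Ery shStag2, 2 libraries, 72 h of doxycycline, the same cytokines as Ery Luc), is quoted only as a further value.

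Each condition is 1 list that pools 2 libraries, so no difference below has a replicate check, no p-value is given, and the spread between libraries of the same cells is unknown. A list holds pairs of HindIII fragments, the first captured for its promoter and the second the other end of the contact, each with a score of 5 or more; the read depth behind a list is unknown. A pair that is not in a list scored below 5 or was not seen, which is not the same as no contact. Contacts within chromosomes numbered 114254 in Ery Luc and 111657 in HPC. They were compared over 21022 captured fragments, those in the capture column of any of the 3 lists, of which 12274 held the start of 13488 protein-coding genes. Contacts were not transcripts, so cell type markers serve here as gene lists and not as a check of cell identity.

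A promoter is read more strongly when a distant enhancer is brought to it, and capture Hi-C lists the pieces of DNA that come near a promoter, enhancers and bystanders alike. In red cell formation EPO acts through its receptor Epor and the kinase Jak2, and the transcription factors Gata1, Tal1 and Klf1 switch on genes for heme, globin and the red cell membrane while Gata2, Kit and other progenitor genes are shut down. Contacts can exist before a gene is active and can persist after it falls silent.

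A fragment was called higher or lower in Ery Luc when, with 1 contact added in both lists, its contacts differed at least 2-fold and by at least 3. It was called at both limits when the same held for contacts that scored at least 7. The promoters below belong to captured fragments on which the gene results turn, 3 with more contacts in Ery Luc and 3 with fewer. They are RefSeq sequences of build GRCm38.p6 (mm10), 5′ to 3′ on the gene's strand, from 250 bases before to 50 bases after the annotated start, and capitals mark the letters AGATAA, a form of the site that GATA factors bind.
Sh3kbp1 promoter, chrX:159627022-159627321, plus strand: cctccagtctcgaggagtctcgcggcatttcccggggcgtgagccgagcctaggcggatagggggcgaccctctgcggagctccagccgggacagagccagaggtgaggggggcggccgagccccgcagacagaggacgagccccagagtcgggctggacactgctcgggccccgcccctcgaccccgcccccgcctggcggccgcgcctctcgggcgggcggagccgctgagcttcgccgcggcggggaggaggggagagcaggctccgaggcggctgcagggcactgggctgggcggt
Bcl2l1 promoter, chr2:152831679-152831978, minus strand: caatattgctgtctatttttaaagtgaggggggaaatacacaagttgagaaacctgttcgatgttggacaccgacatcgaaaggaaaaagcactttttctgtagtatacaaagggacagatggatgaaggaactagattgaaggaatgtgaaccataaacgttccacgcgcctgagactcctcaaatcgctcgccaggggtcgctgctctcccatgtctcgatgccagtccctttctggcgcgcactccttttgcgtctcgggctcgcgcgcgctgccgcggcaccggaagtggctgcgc
Tfrc promoter, chr16:32608646-32608945, plus strand: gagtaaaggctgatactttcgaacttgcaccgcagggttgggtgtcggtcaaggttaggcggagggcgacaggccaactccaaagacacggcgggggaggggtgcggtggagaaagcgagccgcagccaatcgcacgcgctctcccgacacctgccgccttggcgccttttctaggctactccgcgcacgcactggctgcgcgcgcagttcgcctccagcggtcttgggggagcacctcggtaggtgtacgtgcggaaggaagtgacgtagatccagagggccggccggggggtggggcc
Hgf promoter, chr5:16553245-16553544, plus strand: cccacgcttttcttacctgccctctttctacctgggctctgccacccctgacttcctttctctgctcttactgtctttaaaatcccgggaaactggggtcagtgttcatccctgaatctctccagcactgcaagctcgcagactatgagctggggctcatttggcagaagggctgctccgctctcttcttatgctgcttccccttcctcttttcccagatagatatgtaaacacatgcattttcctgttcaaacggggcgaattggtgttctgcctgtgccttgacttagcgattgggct
Selp promoter, chr1:164115014-164115313, plus strand: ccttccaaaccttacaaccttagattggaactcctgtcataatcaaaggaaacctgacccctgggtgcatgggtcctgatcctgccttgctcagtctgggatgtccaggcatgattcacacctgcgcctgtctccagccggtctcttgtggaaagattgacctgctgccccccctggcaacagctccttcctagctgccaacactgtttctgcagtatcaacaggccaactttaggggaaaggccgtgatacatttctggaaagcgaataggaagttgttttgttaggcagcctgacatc
Cpa3 promoter, chr3:20242132-20242431, minus strand: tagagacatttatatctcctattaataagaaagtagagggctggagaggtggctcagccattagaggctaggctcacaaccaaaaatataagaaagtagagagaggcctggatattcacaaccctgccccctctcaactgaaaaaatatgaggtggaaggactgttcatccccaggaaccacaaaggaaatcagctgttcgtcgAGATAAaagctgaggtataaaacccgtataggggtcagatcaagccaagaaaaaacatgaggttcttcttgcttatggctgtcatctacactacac
The GATA letters stand at -46 from the start of Cpa3 and on neither strand of the other 5 windows. The Sh3kbp1, Bcl2l1 and Tfrc windows hold 34, 22 and 30 CG dinucleotides, against 7, 4 and 3 in the Hgf, Selp and Cpa3 windows. Tmem164, second in excess in Ery Luc, has 9 in its window, so the contrast is one of the windows printed. It does not extend to the classes, whose medians were 18 for the 409 genes called higher at both limits, 18 for the 406 called lower and 17 for all 13488 genes.

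Letters of factor sites differed little in frequency between the classes, and no test was made. AGATAA, on either strand, occurred in 8.31% of the promoters called higher, in 7.14% of those called lower and in 9.06% of all promoters on captured fragments; in the whole promoter table the share was 11.2%. CCACACCC, the kind of site Klf1 binds, occurred in 4.40% of promoters called higher, 4.19% of those called lower, 3.78% of all on captured fragments and 3.56% of the whole table. AGGAAGT, the core that ETS factors such as Spi1 bind, occurred in 8.31% of promoters called higher, 10.1% of those called lower, 8.65% on captured fragments and 9.35% of the table. CAGATG, an E-box of the kind Tal1 binds with a partner, occurred in 15.4% of promoters called higher, 12.8% of those called lower, 13.5% on captured fragments and 17.2% of the table. All were sought on both strands, none of the 4 contains another, neighbouring matches can share bases, and a match is not a bound site.

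At a score of at least 5, 2327 captured fragments (11.1%) had more contacts in Ery Luc and 1785 (8.49%) had fewer. At both limits 612 fragments (2.91%) were higher and 578 (2.75%) were lower. The balance of the calls turned with the score, since at 7 or more 980 fragments were higher and 1304 lower, and a single fragment was called opposite ways at 5 and at 7. Scaling the lists to the same total left 1513 higher and 1787 lower, so that 45.8% of the calls were then higher against 56.6% without scaling. Counts were small, and 814 of the 2327 higher calls sat at exactly 2-fold or at a difference of exactly 3. Among the 1785 lower calls, 541 sat at such an edge. Scaling moved Ery Luc values slightly down and HPC values slightly up, which dropped those 814 and kept all 1785 lower calls. The change in balance with scaling thus lay in calls at the edge of the rule. The median fragment had 3 contacts in Ery Luc and 2 in HPC. Contacts were listed only in Ery Luc for 3324 fragments, only in HPC for 1653 and in neither for 3099.

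**Figure D1:**
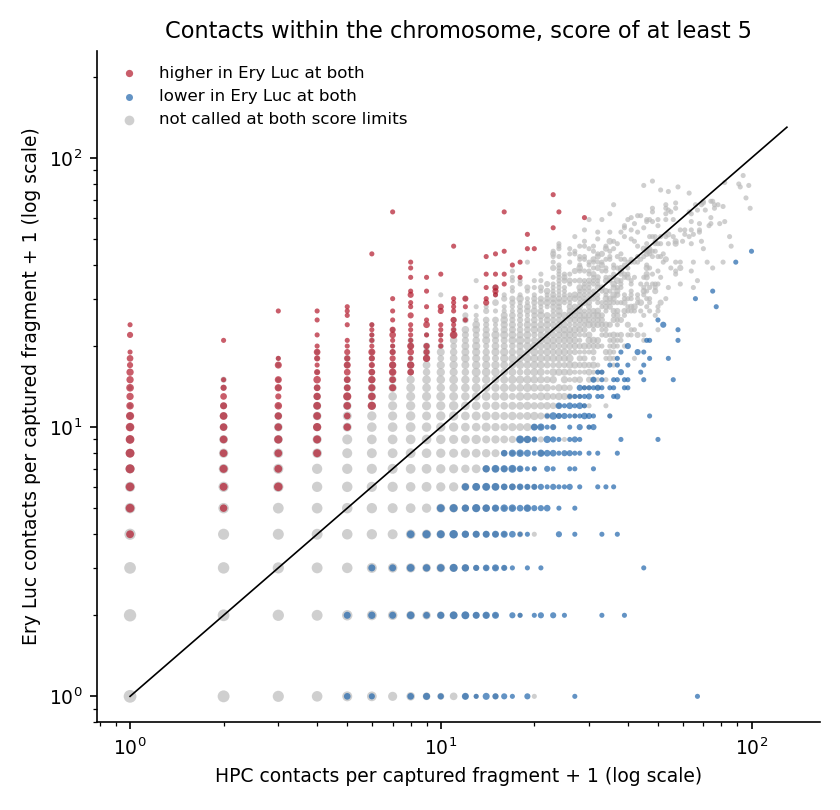
Contacts within the chromosome of each captured fragment in Ery Luc (vertical axis) against HPC (horizontal axis), both as number + 1 on log scales; each point stands for all fragments with that pair of values and grows with their number, and the line marks equal values. The 612 fragments higher in Ery Luc at both score limits (red) and the 578 lower (blue) lie on either side of a broad grey cloud.

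The lists differed in reach. Ery Luc had fewer contacts than HPC at every distance up to 200 kb and more beyond it. Below 20 kb there were 4950 contacts in Ery Luc and 9016 in HPC, a ratio of 0.549, and from 200 to 500 kb there were 41259 in Ery Luc and 35364 in HPC, a ratio of 1.167. From 500 kb to 1 Mb the ratio was 1.884 (11406 in Ery Luc, 6053 in HPC), and beyond 1 Mb it was 6.273 (8055 in Ery Luc, 1284 in HPC). Among contacts that scored 7 or more, the ratio was 0.460 below 20 kb and 4.352 beyond 1 Mb. The calls followed the distance: counting only contacts under 200 kb, 714 fragments were higher and 2006 lower in Ery Luc, and counting only 200 kb to 1 Mb, 1921 were higher and 585 lower. The distance of the contacts is given below for a part of the named fragments, and the other calls carry no split by distance. The part of the difference in reach in any single call was not tested.

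**Figure D2:**
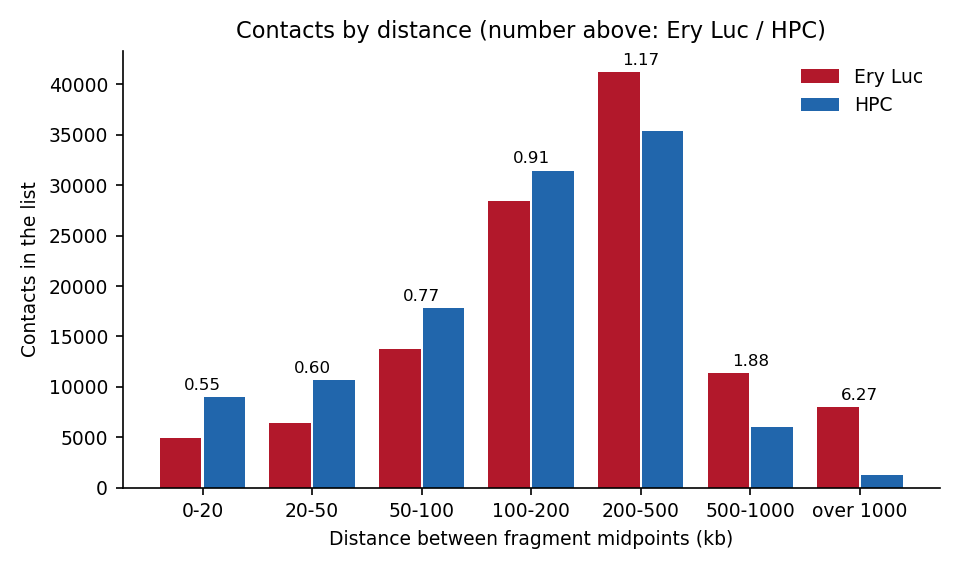
Contacts within chromosomes in each distance class, in Ery Luc (red, left bar) and HPC (blue, right bar), with the ratio of Ery Luc to HPC above each pair. The ratio climbs with distance, with 0.549 under 20 kb and 6.273 beyond 1 Mb.

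The fragments lower in Ery Luc differed chiefly in near contacts. These 578 had 1960 contacts under 200 kb in Ery Luc and 7543 in HPC, 1194 in Ery Luc and 2879 in HPC from 200 kb to 1 Mb, and 122 in Ery Luc and 42 in HPC beyond 1 Mb. Of their HPC contacts 22.0% were listed in Ery Luc, against 45.3% over all fragments. The 612 higher fragments had more contacts in Ery Luc in each class, with 3415 in Ery Luc and 1143 in HPC under 200 kb, 3990 in Ery Luc and 891 in HPC from 200 kb to 1 Mb and 839 in Ery Luc and 73 in HPC beyond 1 Mb, and 66.8% of their HPC contacts were listed in Ery Luc. In the Ery shStag2 list the lower fragments had 5118 contacts, where Ery Luc had 3276 and HPC 10464. The higher fragments had 6654 in Ery shStag2, 8244 in Ery Luc and 2107 in HPC. Both classes were chosen on the Ery Luc and HPC values, which carry no test. The classes were alike in length, the median fragment being 5860.5 bp in the higher class, 5607 bp in the lower class and 5795 bp over all, with a gene start on 62.1% of the higher class, 61.8% of the lower class and 58.4% of all. Fragments with 2 or more starts made up 4.74% of the higher class, 7.61% of the lower class and 5.41% of all.

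Of the identical pairs, 50554 were in both lists. In Ery Luc they made up 80.0% of contacts under 20 kb, 57.6% from 20 to 200 kb, 34.4% from 200 kb to 1 Mb and 6.33% beyond 1 Mb. In HPC the same shares were 43.9%, 46.7%, 43.8% and 39.7%, close to one another. The few short contacts of Ery Luc were thus mostly ones HPC also had, while its far ones mostly were not. A shared pair had a median score of 7.2 in Ery Luc and 7.82 in HPC, and 40.7% scored higher in Ery Luc. Other ends that were themselves captured fragments made up 20.9% of contacts in Ery Luc and 21.5% in HPC.

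Among fragments with a protein-coding gene start that were called at both limits, the greatest excess in Ery Luc was at Sh3kbp1, which encodes an adaptor protein of receptor internalisation, on captured fragment chrX:159623631-159630114. It had 62 contacts in Ery Luc and 6 in HPC, 34 in Ery Luc and 2 in HPC at a score of at least 7, and all 6 HPC contacts were also in Ery Luc. The 3 strongest in each list lay inside the gene itself, and the median distance was 289 kb in Ery Luc and 320 kb in HPC. The strongest, with chrX:159960868-159964340 inside Sh3kbp1 and 336 kb away, scored 23.07 in Ery Luc, was not listed in HPC and scored 14.71 in Ery shStag2. The neighbouring piece chrX:159958651-159960546 scored 22.89 in Ery Luc and 6.39 in HPC. In Ery shStag2 the fragment had 16 contacts, nearer to HPC than to Ery Luc.

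Tmem164, a membrane protein gene also on X, had 72 contacts in Ery Luc, 22 in HPC and 34 in Ery shStag2. Its strongest Ery Luc contact, with chrX:142575173-142577350 at 105 kb, scored 22.56 in Ery Luc and 11.39 in HPC, so the same stretch was already met in progenitors. Nhs, a gene of lens and tooth development on X, had 42 contacts in Ery Luc and 13 in HPC, and its strongest Ery Luc contact, with Reps2 at 295 kb, scored 13.25 in Ery Luc and 8.99 in HPC. Chromosome X as a whole had 3089 contacts in Ery Luc, 1641 in HPC and 2789 in Ery shStag2, and of its 788 fragments 47 (5.96%) were higher and 1 (0.127%) was lower. The ratio of Ery Luc to HPC on X was 1.334 under 200 kb, 2.586 from 200 kb to 1 Mb and 21.077 beyond, against 0.767, 1.255 and 6.120 on autosomes. How much of the excess at these 3 genes belongs to the whole chromosome was not tested. Among autosomes, chromosome 1 had 29 higher and 66 lower fragments, chromosome 17 had 16 higher and 53 lower, and chromosome 3 had 34 higher and 14 lower.

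Another 3 of the leading genes differed mainly at distances under 1 Mb. Rex1bd had 51 contacts in Ery Luc and 18 in HPC, and its contact with chr8:70406482-70414602 over Crtc1 scored 23.00 in Ery Luc and 7.03 in HPC. Rrm2, the ribonucleotide reductase subunit that limits DNA precursor supply in S phase, had 59 in Ery Luc and 28 in HPC, and its strongest contact, with chr12:24954138-24954307 in Mboat2 at 245 kb, scored 27.01 in Ery Luc and 26.49 in HPC. The strongest partner of Rrm2 was thus the same in both lists at nearly the same score. Smndc1, a splicing factor gene, had 43 contacts in Ery Luc and 14 in HPC, with the strongest at 242 kb in the cohesin gene Smc3, scoring 20.01 in Ery Luc and 10.30 in HPC.

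For 4 of the 10 leading genes by this rank, contacts over 1 Mb made up all or much of the excess. Mroh2a had 62 contacts in Ery Luc and 15 in HPC, of which 59 in Ery Luc and 4 in HPC spanned over 1 Mb, and without those it had 3 in Ery Luc and 11 in HPC. The far ones reached across the chromosome, the 3 strongest to Xkr4 and Rp1, at a median distance of 84601 kb, and Ery shStag2 had 56 of them. Ybx3, which encodes an RNA and DNA binding cold-shock protein, had 54 contacts in Ery Luc and 22 in HPC, with 43 in Ery Luc and 11 in HPC over 1 Mb and 11 in each list at shorter distance. Ywhaq, a 14-3-3 protein gene, had 46 in Ery Luc and 10 in HPC, with 24 in Ery Luc and 0 in HPC over 1 Mb, among them one with the start of Odc1 at 3872 kb that scored 14.94 in Ery Luc and was not listed in HPC. Sec23a, a coat protein gene of secretory vesicles, had 38 in Ery Luc and 7 in HPC, with 17 in Ery Luc and 1 in HPC over 1 Mb. Next in rank after these 10 was Mbnl1, with 36 contacts in Ery Luc and 9 in HPC.

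The greatest deficit in Ery Luc was at Hgf, the hepatocyte growth factor gene, on captured fragment chr5:16551190-16554537. It had 0 contacts in Ery Luc, 66 in HPC and 2 in Ery shStag2, and 23 of those in HPC scored at least 7. In HPC they spread on both sides, 28 under 200 kb and 38 from 200 kb to 1 Mb. The strongest scored 13.10 with chr5:16307164-16316139 in the neighbouring calcium channel gene Cacna2d1, 241 kb away, and 5.36 in Ery shStag2. Another, with chr5:16811862-16813341 on the other side of Hgf, scored 10.71 in HPC.

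Selp, which encodes the P-selectin of platelets and endothelium, had 2 contacts in Ery Luc and 44 in HPC on chr1:164100267-164119571, 1 in Ery Luc and 30 in HPC at a score of at least 7. All were under 200 kb. The strongest, with chr1:164121902-164122423 inside the gene 12.2 kb away, scored 8.04 in Ery Luc, 19.82 in HPC and 7.52 in Ery shStag2. Its neighbours showed the same. All 5 captured fragments from chr1:163992761 to 164156673, among them those of Mettl18, the E-selectin gene Sele, Selp and the coagulation factor gene F5, were lower at both limits, with 15 contacts in Ery Luc, 133 in HPC and 17 in Ery shStag2.

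**Figure D3:**
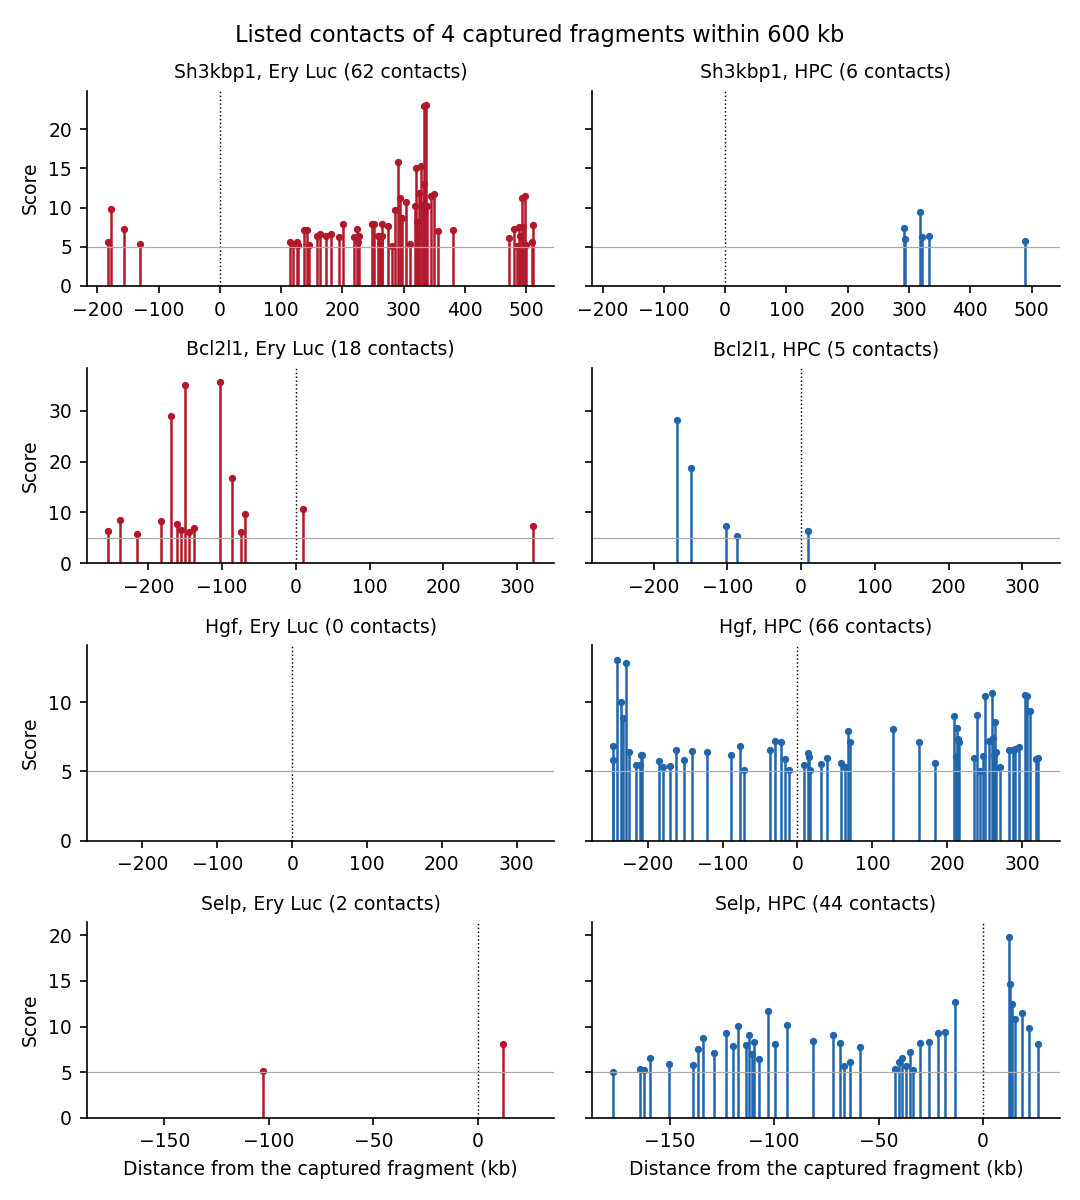
Score of each listed contact (vertical axis) against its distance from the captured fragment in kb (horizontal axis, up to 600 kb on each side, which leaves out 2 Ery Luc contacts of Bcl2l1), in Ery Luc (left) and HPC (right) for 4 genes; the dotted line is the captured fragment and the grey line the lowest listed score of 5. Sh3kbp1 and Bcl2l1 have more stems in Ery Luc, which include each of those in HPC (6 for Sh3kbp1, 5 for Bcl2l1), while Hgf has 0 stems in Ery Luc and 66 in HPC and Selp has 2 in Ery Luc and 44 in HPC.

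The other leading genes with fewer contacts in Ery Luc had varied roles. Akap13, which anchors protein kinase A, had 1 contact in Ery Luc and 38 in HPC, all of them under 200 kb. Slc22a3, an organic cation transporter gene, had 1 in Ery Luc and 32 in HPC, and Mcu, the mitochondrial calcium uniporter gene, had 3 in Ery Luc and 32 in HPC. Map2k7, a kinase of the JNK pathway, had 8 in Ery Luc and 49 in HPC, with the same strongest partner in both, chr8:3626208-3627777 at 612 kb, scoring 8.88 in Ery Luc and 15.31 in HPC. Casq1, the calsequestrin gene of muscle, had 14 in Ery Luc and 55 in HPC, and Tpst1, a tyrosine sulfotransferase gene, had 14 in Ery Luc and 44 in HPC. Under 200 kb lay 8 of the Casq1 contacts in Ery Luc and 53 in HPC, and all those of Tpst1. From 200 kb to 1 Mb Casq1 had 6 in Ery Luc and 2 in HPC. Dse, which encodes a dermatan sulfate epimerase, and Cdca3, a cell division gene, still had many contacts, with 40 in Ery Luc and 88 in HPC for Dse and 29 in Ery Luc and 65 in HPC for Cdca3. Of these, Dse had 77 in Ery shStag2, close to HPC, while in Ery shStag2 Akap13 had 5 and Slc22a3 had 2. The gene next in rank, Ltb, which encodes lymphotoxin beta, had 7 contacts in Ery Luc and 36 in HPC, the same difference as Mcu, which the log2 ratio placed before it.

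**Figure D4:**
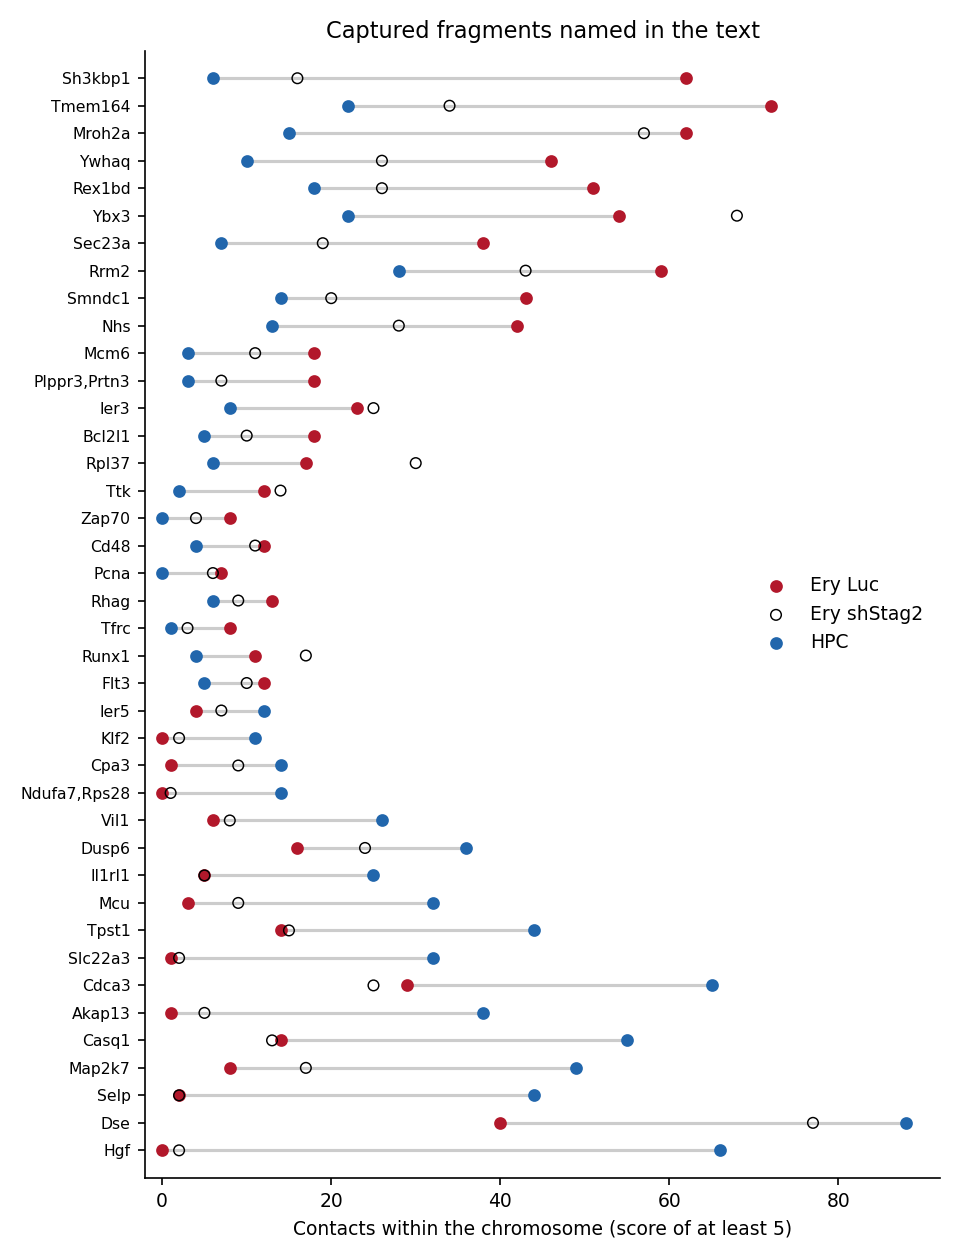
Contacts within the chromosome (horizontal axis, score of at least 5) of the captured fragments of the genes that lead each direction or belong to a gene list and were called at both limits, with Ery Luc in red, Ery shStag2 as open circles and HPC in blue. Fragments run from the greatest excess in Ery Luc at the top (Sh3kbp1, 62 in Ery Luc and 6 in HPC) to the greatest deficit at the bottom (Hgf, 0 in Ery Luc and 66 in HPC).

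Gene lists were read against all 13488 genes, of which 1640 (12.2%) were higher and 1225 (9.08%) lower at a score of at least 5, and 409 (3.03%) higher and 406 (3.01%) lower at both limits, with a median difference of 0. At 7 or more, 980 of all 21022 captured fragments were higher and 1304 lower, and the share over genes at that limit was not counted. A gene was placed by its start, and of 434 listed genes 292 were measured. Members share fragments and neighbourhoods, and they were not a random draw, so the counts describe the lists only.

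At a score of at least 5, more genes of the red cell membrane, iron, heme and globin lists were higher than lower. At 7 or more few of these genes were called, with 1 higher and 0 lower in the membrane list and 1 and 0 in the iron list. The heme list had 0 and 2, and the globins 0 and 0. Of 12 measured genes of the red cell membrane and skeleton, 5 were higher and 0 lower, with a median difference of 2 contacts. With the lists scaled to the same total, 2 of the 12 were higher and 0 lower. In that setting 2 iron genes, 3 heme genes and 1 globin gene were higher. Scaling also lowered the higher calls over all fragments, to 1513. Rhag, the Rh-associated glycoprotein, had 13 contacts in Ery Luc and 6 in HPC and was the member called at both limits, at exactly 2-fold. Slc2a1, the glucose transporter of red cells, had 7 in Ery Luc and 1 in HPC, Cd47, the surface signal that spares cells from engulfment, had 7 in Ery Luc and 3 in HPC, the blood group gene Kel had 4 in Ery Luc and 0 in HPC, and Xk, another, had 4 in Ery Luc and 1 in HPC. The calls of Cd47, at exactly 2-fold, and of Xk, at a difference of exactly 3, also sat at the edge of the rule. Slc4a1, the band 3 anion exchanger, was placed by its annotated end alone and had 4 contacts in Ery Luc and 3 in HPC.

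Of 11 iron genes 3 were higher and 0 lower. Tfrc, the transferrin receptor through which erythroblasts take up iron, had 8 contacts in Ery Luc and 1 in HPC, and none was shared. Its strongest in Ery Luc, with the Wdr53 start at chr16:32247202-32249809, scored 9.44. The ferritin light chain gene Ftl1 had 14 in Ery Luc and 6 in HPC and the metalloreductase gene Steap4 had 3 in Ery Luc and 0 in HPC. In heme synthesis 3 of 12 were higher and 1 lower. Alas2, the erythroid first enzyme, had 4 contacts in Ery Luc and 0 in HPC, with 1 in Ery shStag2, and it lies on X. Uros, a later enzyme of the pathway, had 9 in Ery Luc and 2 in HPC and the mitochondrial transporter gene Abcb10 had 7 in Ery Luc and 2 in HPC, whereas Alas1, the form of the first enzyme used outside red cells, had 2 in Ery Luc and 7 in HPC. None of these 4 heme calls held at both limits.

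Globin genes had few contacts. Of 5 measured, 2 were higher and 0 lower at 5 or more and none was called at both limits. Hba-a1, an alpha-globin gene that shares its fragment with Hbq1b, had 3 contacts in Ery Luc and 1 in HPC. The one they share was with the Nprl3 fragment chr11:32256431-32275083, 18.2 kb away, and scored 18.02 in Ery Luc, 11.07 in HPC and 12.08 in Ery shStag2. Nprl3 is the gene whose introns hold the alpha-globin enhancers in mouse. Adult beta-globin Hbb-bs had 5 contacts in Ery Luc and 2 in HPC.

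EPO signalling genes were higher in 3 of 12 and lower in 1, with the highest median difference of the lists, 2.5. Bcl2l1, which encodes the survival protein Bcl-xL that EPO sustains in erythroblasts, had 18 contacts in Ery Luc and 5 in HPC on chr2:152830578-152846661, 13 in Ery Luc and 3 in HPC at 7 or more, and all 5 HPC contacts were kept. Its contact with chr2:152730240-152742147 over Id1, 102 kb away, scored 35.62 in Ery Luc, 7.37 in HPC and 25.23 in Ery shStag2. The contact with the H13 start at 169 kb scored 29.06 in Ery Luc and 28.14 in HPC. Of its strong partners, H13 thus stood at nearly the same score in both lists and the Id1 piece far higher in Ery Luc. Epor itself had 10 contacts in Ery Luc and 9 in HPC, Jak2 had 17 in Ery Luc and 11 in HPC, and Socs1, a feedback inhibitor of Jak2, had 7 in Ery Luc and 2 in HPC.

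Of 14 erythroid transcription factors 1 was higher and 1 lower, and at 7 or more 1 was higher and 2 lower. Klf1 had 18 contacts in Ery Luc and 15 in HPC, and 12 pairs were in both lists. Tal1 had 35 in Ery Luc and 45 in HPC, and 12 in Ery Luc and 26 in HPC at a score of at least 7. Gata1, placed by an annotated end, had 13 in Ery Luc and 24 in HPC, and 1 in Ery Luc and 12 in HPC at 7 or more, although it lies on X, where contacts were more numerous in Ery Luc. Its strongest HPC contact, with chrX:7991927-7994165 at 15.7 kb, scored 5.83 in Ery Luc and 10.45 in HPC.

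**Figure D5:**
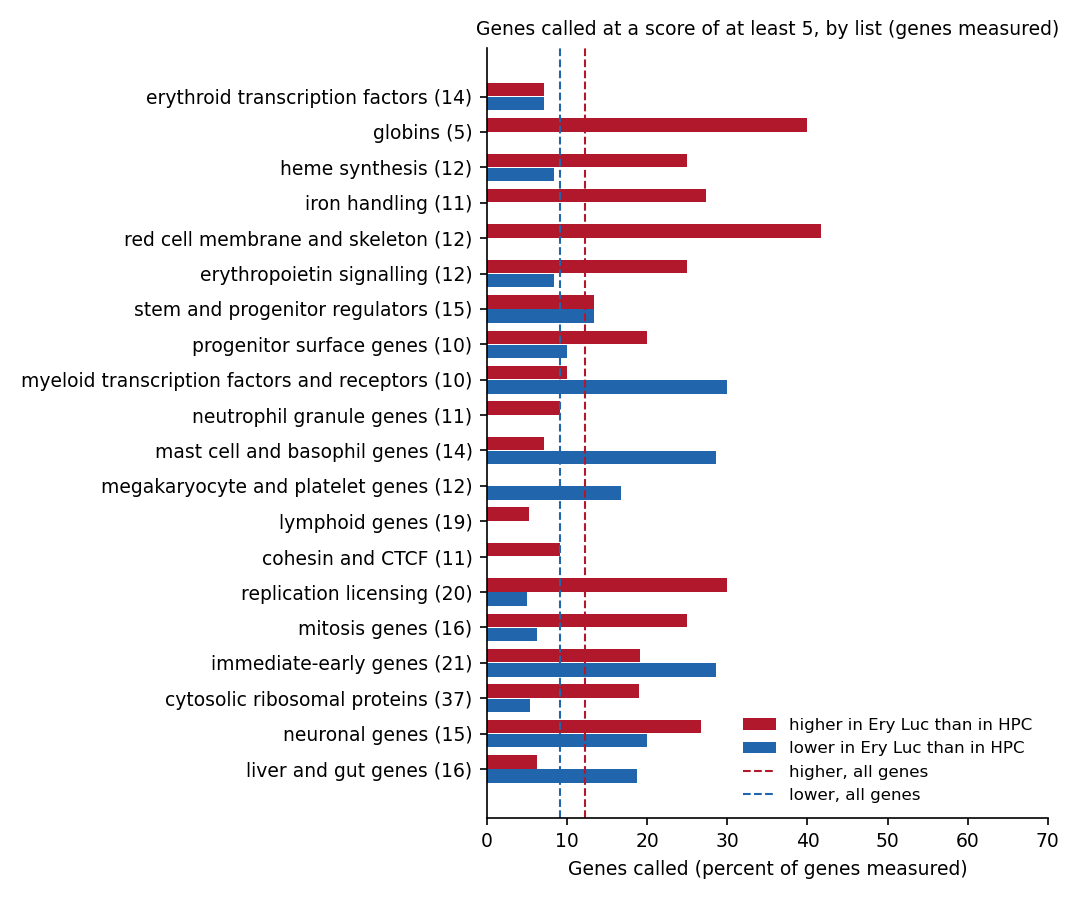
Share of measured genes in each list called higher (red) or lower (blue) in Ery Luc than in HPC at a score of at least 5, with the number of genes measured in brackets; the dashed lines are the shares over all genes, 12.2% and 9.08%. Red cell membrane, globin, iron, heme, EPO signalling, replication, mitosis and ribosomal protein lists lie to the right of the red line only. Myeloid factor and receptor, mast cell, megakaryocyte, and liver and gut lists lie to the right of the blue line only. Immediate-early, neuronal, stem and progenitor regulator, and progenitor surface lists lie to the right of both.

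Progenitor genes differed both ways. Of 15 stem and progenitor regulators 2 were higher and 2 lower. Their median difference was 2 contacts, the same as in the red cell membrane, iron, heme and globin lists. Runx1, a founder factor of blood stem cells, had 11 contacts in Ery Luc and 4 in HPC, all from 200 kb to 1 Mb. No pair of fragments was identical. The strongest Runx1 contact in Ery Luc, at 462 kb, lay on the fragment next to an HPC contact at 459 kb. Hlf, a stem cell transcription factor, had 22 in Ery Luc and 49 in HPC, but was not called at both limits. Gata2 had 11 in each list with 3 shared and Kit 6 in each with 2 shared, so most of their pairs of fragments were not identical. Fragments that differ can still lie in the same stretch. The strongest Gata2 contact of each list lay over Eefsec, at 233 kb in Ery Luc and 240 kb in HPC. Myb had 40 in each with 25 shared, mostly the same ones. The strongest Myb contact of each list lay over Hbs1l, at about 178 kb in Ery Luc (score 11.92) and 180 kb in HPC (score 15.80). On the other side of Myb, a contact over Ahi1 at 168 kb scored 11.69 in Ery Luc and 11.13 in HPC. Of 10 progenitor surface genes, Flt3, a cytokine receptor, had 12 contacts in Ery Luc and 5 in HPC and Cd48, an adhesion protein, had 12 in Ery Luc and 4 in HPC, both called at both limits, while Cd34 had 1 in Ery Luc and 9 in HPC.

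Among mast cell, myeloid and megakaryocyte genes, more members were lower than higher in Ery Luc at a score of at least 5. At 7 or more, 0 were higher in these lists, and 2 mast cell, 0 myeloid and 2 megakaryocyte genes were lower. At that limit 980 of all 21022 fragments were higher and 1304 lower, so such counts in short lists carry little weight. Of 14 mast cell and basophil genes 1 was higher and 4 lower. Of their HPC contacts 26.7% (18.9 to 35.7) were kept, where the range is the exact 95% binomial interval and covers counting error only. Over all fragments 45.3% were kept. Other lists also lay below that, such as lymphoid (33.3%), neuronal (36.6%) and megakaryocyte genes (37.8%), and some lay above it, such as replication genes (58.5%). Il1rl1, the interleukin-33 receptor of mast cells, had 5 contacts in Ery Luc, 25 in HPC and 5 in Ery shStag2, and its strongest in HPC, at chr1:40048894-40054100, scored 13.14 there and was not listed in Ery Luc. Cpa3, the mast cell carboxypeptidase, had 1 in Ery Luc, 14 in HPC and 9 in Ery shStag2. Among myeloid transcription factors and receptors 1 of 10 was higher and 3 lower, with 25% (15.0 to 37.4) of HPC contacts kept. The higher one was Csf3r, with 3 contacts in Ery Luc and 0 in HPC. Cebpa, the granulocyte factor, had 1 contact in Ery Luc and 10 in HPC, Irf5 had 4 in Ery Luc and 10 in HPC, Itgam, the Mac-1 integrin, had 3 in Ery Luc and 8 in HPC, and Csf1r, the macrophage growth factor receptor placed by an annotated end, had 2 in Ery Luc and 12 in HPC. Spi1, which encodes PU.1, has annotated ends on 2 fragments, with 9 contacts in Ery Luc and 5 in HPC on the first and 19 in each on the second, which also holds the Mybpc3 start.

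Megakaryocyte genes were lower in 2 of 12 and higher in 0, with a median difference of -1.5. Beside Selp these were Treml1, with 1 contact in Ery Luc and 8 in HPC. Itga2b, the platelet integrin, had 2 in Ery Luc and 4 in HPC, and Pf4 with Ppbp, platelet chemokines on 1 fragment, had 6 in Ery Luc and 8 in HPC. Of 11 neutrophil granule genes 1 was higher, Prtn3, proteinase 3, with 18 contacts in Ery Luc and 3 in HPC on a fragment it shares with Plppr3. It is the first of 7 higher fragments in chr10:79872670-80124375, over Cfd, Med16, Gpx4 and Stk11, with 147 contacts in Ery Luc and 37 in HPC. Uncalled fragments lie between them, and all 14 captured there had 261 in Ery Luc and 132 in HPC. The next one, with the neutrophil elastase gene Elane, had 20 in Ery Luc and 22 in HPC. Mpo, myeloperoxidase, had 7 in Ery Luc and 4 in HPC. Of 19 lymphoid genes 1 was called, Zap70, a T cell kinase, with 8 contacts in Ery Luc and 0 in HPC, the strongest at the start of Inpp4a 534 kb away with a score of 13.97. None of the other 18 had more than 8 contacts in Ery Luc or 5 in HPC.

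Of 20 replication genes 6 were higher and 1 lower, 3 of the higher at both limits, and at 7 or more 6 were higher and 0 lower. Mcm6, a subunit of the replicative helicase, had 18 contacts in Ery Luc and 3 in HPC, all from 200 kb to 1 Mb, with its 3 HPC contacts kept. Pcna, the sliding clamp of DNA polymerase, had 7 in Ery Luc and 0 in HPC, with the strongest at the start of Tmem230 5.54 kb away, scoring 15.30 in Ery Luc, and Mcm5 had 19 in Ery Luc and 7 in HPC. The exception was Cdc6, a licensing factor, with 5 in Ery Luc and 12 in HPC. Of 16 mitosis genes 4 were higher and 1 lower, against 1 and 2 at 7 or more. The higher ones included Ttk, the spindle checkpoint kinase, with 12 in Ery Luc and 2 in HPC, of which 11 in Ery Luc and 1 in HPC spanned over 1 Mb. Of 11 cohesin and CTCF genes 1 was higher, Ctcf, with 6 in Ery Luc and 2 in HPC. Of 37 ribosomal protein genes 7 were higher and 2 lower, with Rpl37 at 17 in Ery Luc and 6 in HPC, 14 in Ery Luc and 2 in HPC over 1 Mb, and Rps28, on a fragment with Ndufa7, at 0 in Ery Luc and 14 in HPC.

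Immediate-early genes, which growth factors switch on within minutes, had the most negative median difference, -3, with 4 of 21 higher and 6 lower. Dusp6, the ERK phosphatase, had 16 contacts in Ery Luc, 36 in HPC and 24 in Ery shStag2. Its contact with chr10:99575721-99579116 at 313 kb stood at 12.30 in Ery Luc and 12.25 in HPC, while the strongest HPC contact, at 68.8 kb in Poc1b, scored 14.78 there and was not listed in Ery Luc. Klf2, a zinc finger factor, had 0 in Ery Luc and 11 in HPC, all under 200 kb. Ier5 had 4 in Ery Luc and 12 in HPC, with 2 in Ery Luc and 11 in HPC under 200 kb. Ier3, a stress response gene, was opposite with 23 in Ery Luc and 8 in HPC, and Egr2 had 5 in Ery Luc and 0 in HPC. Lists of tissues the cells do not belong to were also called, with 4 of 15 neuronal genes higher and 3 lower and 1 of 16 liver and gut genes higher and 3 lower. Of the last, Vil1, the villin gene, had 6 contacts in Ery Luc and 26 in HPC and was called at both limits.

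Part of the called fragments had called neighbours. Of the 1190 called at both limits, 450 (37.8%) lay within 200 kb of a neighbour called the same way, in runs of up to 8 called fragments, with uncalled ones skipped. Captured fragments can lie close together, and the share to be met from their spacing alone was not computed. The 37.8% is therefore no measure of clustering. Of the 12 runs of 5 or more, 9 were lower and 3 higher in Ery Luc. The run of 8 lay at chr17:33637861-34211953, with 30 contacts in Ery Luc and 146 in HPC on the called fragments and 103 in Ery Luc and 224 in HPC over all 22 captured there, 6 of which had more in Ery Luc. It held the starts of Rps28 and, in the major histocompatibility complex, of Rxrb, Ring1, Brd2, H2-Oa and Psmb8, an immunoproteasome subunit gene. A run of 7 at chr7:141262342-141432840, with Irf7, the interferon regulator, at 7 contacts in Ery Luc and 22 in HPC, had 24 in Ery Luc and 96 in HPC, and 59 in Ery Luc and 138 in HPC over all 11 captured there. A higher run of 6 at chr8:70148055-70677152 held Rex1bd, Crtc1 and the upstream Upf1, with 106 contacts in Ery Luc and 31 in HPC, and 273 in Ery Luc and 111 in HPC over all 22 captured there. Fragments in a run share other ends and are not separate observations.

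Contacts over 1 Mb were spread over many fragments, with at least 1 on 4439 fragments in Ery Luc and on 583 in HPC. A smaller part was concentrated at a few loci, chosen for description after their values were seen. Of 8055 in Ery Luc, 13.5% were on the 57 fragments with at least 10 each, and of 1284 in HPC 25.4% were on 17 fragments. The replication-dependent histone genes of chromosome 13 formed one such group. Their 28 captured fragments had 369 contacts over 1 Mb in Ery Luc, 157 in HPC and 486 in Ery shStag2. Between pairs of these 28, contacts over 1 Mb numbered 97 in Ery Luc and 65 in HPC, so histone genes far apart met one another in both lists. Styk1 had 46 such contacts in Ery Luc and 47 in HPC, with the natural killer receptor gene Klre1 1772 kb away at 33.59 in Ery Luc and 31.98 in HPC. A fragment with an annotated end of Myc had 22 in Ery Luc and 17 in HPC, 12 of them shared, and the 3 strongest of each list lay 1625 to 1740 kb away, over no protein-coding gene. The contact with chr15:63655855-63657896 scored 18.51 in Ery Luc, 10.67 in HPC and 15.45 in Ery shStag2. In mouse blood cells Myc is known to be driven by enhancers far beyond the gene.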

How the data were processed

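Promoter capture Hi-C of HPC-7 cells used HindIII fragments and bead capture, per the labels' protocols, with mm10 as the build per the submitters' processing notes. The authors deposited 1 list per condition, pooling 2 libraries, in which each pair of fragments has a score. The software that made the score is not given in the sources used here. Depth is unknown, so no counting interval for a score or a fragment was possible. Intervals on shares of contacts are exact binomial at 95%.

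Contacts within chromosomes were counted per captured fragment at scores of at least 5 and 7, with the call rule stated above. Genes were placed by RefSeq starts of GRCm38.p6, or by an annotated end where no start was in the table used. Named genes were, among captured fragments with a protein-coding gene start that were called at both limits, the 10 with the greatest excess and the 10 with the greatest deficit (ties by log2 ratio), so fragments without such a start are not named, list members called at both limits, and a fixed set of lineage genes. Of 21900 protein-coding genes, 17492 had a start in the table used, and fragments without one were left out of the ranking. Among those left out, 1 called higher had 62 contacts in Ery Luc and 23 in HPC. Another, called lower, had 44 in Ery Luc and 99 in HPC. Members and lists were chosen with earlier results of these data known. Python 3.11.15, pandas 2.3.3 and scipy 1.17.1 were used, and the call rule was tested on simulated contact counts with planted changes. The RNA-seq libraries were not used here.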

Additional observations from a re-analysis of the deposited data

Results flagged for a closer look

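Contacts between chromosomes, which no comparison above uses, made up 7.14% of the Ery Luc list (8788 contacts) and 0.469% of the HPC list (526 contacts). They drew attention because they lie outside the main measurement and above the level in HPC. The cause was not tested.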

How the results depend on the processing

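The number of fragments called higher in Ery Luc was 980 at a score of at least 7, 356 at 10, 1513 with the lists scaled to the same total, 1248 with a difference of at least 5 and 714 for contacts under 200 kb, against 2327. The number called lower was 619 at a score of at least 10, 1145 with a difference of at least 5 and 585 for contacts of 200 kb to 1 Mb, against 1785. The higher share of the calls was 56.6%, and 42.9%, 36.5% and 45.8% at scores of at least 7 and 10 and with scaling, 26.3% under 200 kb, 76.7% from 200 kb to 1 Mb and 65.8% with contacts between chromosomes included. The change with scaling lay in higher calls at exactly 2-fold or at a difference of exactly 3. Over the gene lists, 22 higher and 19 lower calls were made at a score of at least 7, against 52 and 31. The share of HPC contacts listed in Ery Luc was 72.0% with other ends matched within 10 kb, 67.1% for HPC scores of at least 7 and 42.7% with 7 in both lists. The median distance was 201 kb in Ery Luc and 148 kb in HPC at a score of at least 7, and 196 and 146 kb at 10, with 5.55% and 1.16%, and 5.26% and 1.40%, over 1 Mb.

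Of the named genes called at a score of at least 5, those whose difference turned sign were Mroh2a at -8 with contacts of at most 1 Mb and at -8 under 200 kb, Ybx3 at -3 under 200 kb, Rpl37 at -1 and -3 in the same settings, and from 200 kb to 1 Mb Casq1 at 4 and Ier5 at 1. Of 58 named fragments, 51 had the same call at a score of at least 7, but that number is no check. The leading genes and list members were chosen for calls at both limits, so their calls at 7 were fixed in advance. The 4 calls lost at 7 were those of Alas2, Cd34, Cebpa and Csf1r, the only ones free to be lost. With scaling 57 had the same call (the exception was Rhag). With the Ery shStag2 list in place of Ery Luc 39 had it, and 0 of the called ones turned. Genes that were not called could also turn, as Tal1 did at 3 and Slc4a1 at -2 from 200 kb to 1 Mb. The settings by distance class and the Ery shStag2 comparison were chosen after seeing the data. The causes were not tested.

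No paired analysis was possible because each condition is 1 list that pools its libraries, which also leaves no library to leave out. The lists give no read depth, so fewer contacts and less sensitive detection cannot be told apart, at single genes and in the balance of near and far contacts.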

Other observations

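MicroRNA hairpins were placed on captured fragments as well, and the fragments named here were chosen after their values were seen. Of 1005 hairpins in the RefSeq table, 600 lay on 476 captured fragments, of which 10 (2.10%) were higher and 24 (5.04%) lower in Ery Luc at both score limits, against 2.91% higher and 2.75% lower over all captured fragments. The fragment of Mir15b and Mir16-2, chr3:69009716-69013661, had 6 contacts in Ery Luc, 25 in HPC and 16 in Ery shStag2. Its main products share their seed, in capitals, which directs both to the same kind of target site.
mmu-miR-15b-5p: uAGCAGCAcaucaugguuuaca
mmu-miR-16-5p: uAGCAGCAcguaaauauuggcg
Mir125a, a microRNA of blood stem cells, had 17 contacts in Ery Luc and 46 in HPC, and Mir214 had 0 in Ery Luc and 13 in HPC. The Mir302 cluster, known from embryonic stem cells, had 16 in Ery Luc and 3 in HPC. On X the Mir450 fragment had 36 in Ery Luc and 15 in HPC. Mir451a, the microRNA most typical of red cells, had 14 contacts in Ery Luc and 17 in HPC, 11 in Ery Luc and 12 in HPC at a score of at least 7. Mir142, common to blood cells, had 18 in Ery Luc and 8 in HPC but was not called at both limits.

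Some listed genes had no start in the table used and were placed by an annotated end, outside the counts above. Among them Fech, the enzyme that inserts iron into heme, had 9 contacts in Ery Luc and 2 in HPC, and Slc40a1, the iron exporter ferroportin, had 11 in Ery Luc and 3 in HPC. Nfe2, a globin and platelet gene factor, had 2 in Ery Luc and 8 in HPC, and Egr3, an immediate-early factor, had 14 in Ery Luc and 36 in HPC. All 4 were called at both limits, and they were chosen after their values were seen.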
